A study of Mus musculus with 157 samples.

Results

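The 10 genes described here build, load and regulate the MHC class I molecule of the mouse: the heavy chains H2-K1 and H2-D1, the shared light chain B2m, the peptide transporter subunits Tap1 and Tap2, the loading factor Tapbp, the trimming enzyme Erap1, the immunoproteasome subunits Psmb8 and Psmb9, and the transactivator Nlrc5. They were chosen by symbol, with earlier results of these data known. Each matched 1 row by its Ensembl identifier among the 50686 gene rows of 2 count tables. Levels are given in CPM, a gene's counts scaled to a fixed library total that is corrected by a factor computed over the whole run, and every comparison stays within 1 run because the runs were counted separately. All 10 genes passed the filter on low counts in each of the 18 comparisons between 2 groups.

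MHC class I molecules show peptides from inside the cell to CD8 T cells. Proteasomes cut proteins into peptides, and immunoproteasomes carry exchanged catalytic subunits, among them those encoded by Psmb8 and Psmb9. The TAP1-TAP2 transporter carries peptides into the endoplasmic reticulum, ERAP1 trims them, and tapasin (Tapbp) bridges the transporter to a heavy chain paired with beta-2-microglobulin (B2m). NLRC5 switches on many of these genes at conserved promoter boxes, and interferon raises most of them. Immature double positive thymocytes are known for little class I on their surface, which increases as they mature.

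The series holds 157 bulk RNA-seq libraries in 23 groups from mouse thymus and thymic lymphoma. Cdc20 activates the anaphase-promoting complex. D denotes its deleted allele, and AAA a mutant allele that the spindle checkpoint does not hold in check. The controls were Cdc20(+/D) and the aneuploid mice Cdc20(D/AAA), so both carry a deleted copy, and the label of the only p53(-/-) tumour names no Cdc20 allele. The RERT2 prefix names an inducible, broadly active Cre driver, while LCK and CD4 are drivers of the T lineage.

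In the earlier run, sorted thymocytes from RERT2 +/D mice covered the double negative stages DN1 (6 libraries), DN2 (8), DN3 (8) and DN4 (8) and the double positive stage DP (7). The RERT2 D/AAA counterparts numbered 9, 1, 5, 6 and 11, and early tumours of RERT2 D/AAA mice were either sorted as DP cells (5) or left unsorted (7). The later run held whole thymus of RERT2 +/D mice (6) and RERT2 D/AAA mice (9), and RERT2 MYCChr6 thymus of the +/D (2) and D/AAA (3) genotype. Of its tumours, 22 were RERT2 D/AAA, 10 had p53(+/D) beside RERT2 D/AAA, and 1 was p53(-/-). MYCChr6 tumours numbered 14 for LCK D/AAA, 4 for LCK +/D, 3 for RERT2 D/AAA and 2 for CD4 D/AAA. The labels name MYCChr6 without explaining it. Tumours of the later run were unsorted, so their libraries hold whatever other cells the tissue held. The sources used here do not give ages or the inducing treatment. Nor do they say whether libraries of a group, or of different stages, came from separate mice. The p-values therefore measure only the spread between these libraries, which the tests treated as separate.

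Total counts ran from 21199 to 11595463 per library in the earlier run (median 6972708) and from 1708619 to 8009572 in the later run. In the later run 40.4% ± 5.53 (SD, n = 76) of counts fell on the ribosomal RNA gene CT010467.1. The DN1 D/AAA library 8, with 21199 counts, stood apart in most of the genes described here. DP libraries carried a high sum of 8 double positive markers (8139.6 to 11693 CPM in DP +/D, against 110 to 193 in DN1 +/D). DN1 +/D libraries also carried 6125 to 17495 CPM of 7 MHC class II genes and 5989 to 7152 CPM of 10 genes of NK, NKT and innate-like T cells, against 134 to 748 and 252 to 598 CPM in DN2 +/D. Among the 7 unsorted early tumours, libraries 1, 4, 5, 6 and 7 had 2195 to 7492 CPM of class II genes and 58.1 to 261 CPM of double positive markers. Libraries 2 and 3 of that group had 96.2 and 168 CPM of class II genes.

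Promoter sequences are shown for the heavy chains and B2m, which encode the class I molecule itself and fell at each of the first 2 steps of the sorted stages. On GRCm38, H2-K1 lies on chromosome 17 at 33996017 to 34000347 on the minus strand and H2-D1 on chromosome 17 at 35262730 to 35267499 on the plus strand. B2m lies on chromosome 2 at 122147686 to 122153083 on the plus strand. Tapbp, Psmb9, Tap1, Psmb8 and Tap2 also lie on chromosome 17, between 33915899 and 34216321, while Nlrc5 is on chromosome 8 and Erap1 on chromosome 13. All are annotated as protein coding. The RefSeq promoter table (GRCm38.p6) held 8 of the 10 genes, without Tap2 and Nlrc5, and the windows are the 250 bases before each RefSeq start. H2-K1 had 2 such windows, of which the first is shown. In the 3 stretches below, each 5′ to 3′ on the gene's strand, capitals mark TGACG, the letters of an X2-like box, and ATTGG, those of a Y box, the inverted CCAAT. Both are among the promoter boxes of class I genes.
H2-K1, chr17:34000359-34000388, minus strand, first base 41 bases before the start: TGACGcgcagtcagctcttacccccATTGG
H2-D1, chr17:35262993-35263022, plus strand, first base 101 bases before the start: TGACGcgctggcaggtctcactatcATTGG
B2m, chr2:122147609-122147638, plus strand, first base 78 bases before the start: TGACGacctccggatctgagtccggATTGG

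Each of these 3 stretches holds TGACG, 20 other bases and ATTGG. Of their 30 bases, H2-K1 and H2-D1 share 23, H2-K1 and B2m share 13, and H2-D1 and B2m share 12. Between the boxes the heavy chains share 13 of 20 bases, while B2m shares 3 with H2-K1 and 2 with H2-D1. In the second window of H2-K1 the same 30 bases began 55 bases before the start. The same arrangement on either strand was in 30 of 32851 promoters of that length (0.0913%). It was searched for after these sequences had been read, so its presence in the 3 genes is a description. The boxes alone are common: ATTGG was in 33.8% and TGACG in 17.8% of the promoters, counting both strands. Tap1 and Psmb9, which are divergent and whose windows share 225 bases, each held both boxes but not in this arrangement. Tapbp held ATTGG at 2 places and no TGACG, and the windows of Psmb8 and Erap1 held neither. The windows of H2-D1, Tapbp, Psmb8, Psmb9 and Erap1 lie inside the annotated spans of these genes. Bases before their annotated starts were not searched.

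The whole windows of H2-K1 and B2m show where the interferon-related letters fall. Capitals mark the boxes above and, upstream of them, the letters AANNGAAA, an interferon regulatory factor core, in H2-K1 (where they read on the opposite strand as TTTCACTT) and, in B2m, the core of an interferon-stimulated response element, searched as GAAA, any 2 bases and GAAA. Both searches covered both strands.
H2-K1, chr17:34000348-34000597, minus strand: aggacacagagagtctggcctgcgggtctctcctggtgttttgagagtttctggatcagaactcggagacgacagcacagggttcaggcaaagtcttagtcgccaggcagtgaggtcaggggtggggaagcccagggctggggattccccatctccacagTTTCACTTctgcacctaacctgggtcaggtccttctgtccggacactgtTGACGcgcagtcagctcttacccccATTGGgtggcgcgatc
B2m, chr2:122147437-122147686, plus strand: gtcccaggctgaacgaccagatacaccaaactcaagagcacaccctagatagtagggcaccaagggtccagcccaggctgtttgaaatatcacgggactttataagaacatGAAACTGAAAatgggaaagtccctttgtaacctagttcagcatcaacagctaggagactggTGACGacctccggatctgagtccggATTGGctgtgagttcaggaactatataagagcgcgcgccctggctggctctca

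The response element core was in 2.98% of all promoters and, among the 8 genes, in B2m alone, 139 bases before its start. AANNGAAA, which that core contains, was in 21.3% of promoters and in the windows of H2-K1, H2-D1 and B2m, 90, 150 and 137 bases before the start. In the second window of H2-K1, AANNGAAA lay 104 bases before the start. It was absent from the windows of Tap1, Tapbp, Psmb8, Psmb9 and Erap1. The search for AANNGAAA was also added after the sequences had been read.

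Some of the genes share sequence or exons with others, which limits how their reads could be assigned. Of the 50-base stretches of H2-K1 and H2-D1 transcripts, 9.63% and 12.8% also occur in other genes, mainly each other and the H2-Q genes. Exons of Psmb9 and Tap1 overlap over 212 bases, and those of Erap1 overlap the gene Cast over 834 bases. Tapbp, Tap2, Psmb8 and Nlrc5 also overlap annotated neighbours. The sources used here do not say whether the counting used strand, so values of these overlapping genes are uncertain to that extent.

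Among the sorted stages of +/D mice, the heavy chains, B2m, Nlrc5, Psmb9 and Erap1 had the highest mean at DN1 and the lowest at DP. H2-K1 fell mainly in 2 steps, from DN1 to DN2 and from DN4 to DP. Across the sorted stages the mean H2-K1 level of +/D libraries went from 5704 to 104 CPM. Per kilobase of exon, the order of genes also changed. At DN1 +/D the mean CPM per kilobase was 3618 for B2m, 3160.1 for H2-D1, 1941 for H2-K1 and 138 for Tap2. At DP +/D it was 321 for B2m, 215 for Tap2, 199 for H2-D1 and 35.3 for H2-K1. Nlrc5 and Erap1 were lowest at both stages on this per-length scale, with 18.1 and 11.3 at DN1 and 0.503 and 3.58 at DP.

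**Figure D1:**
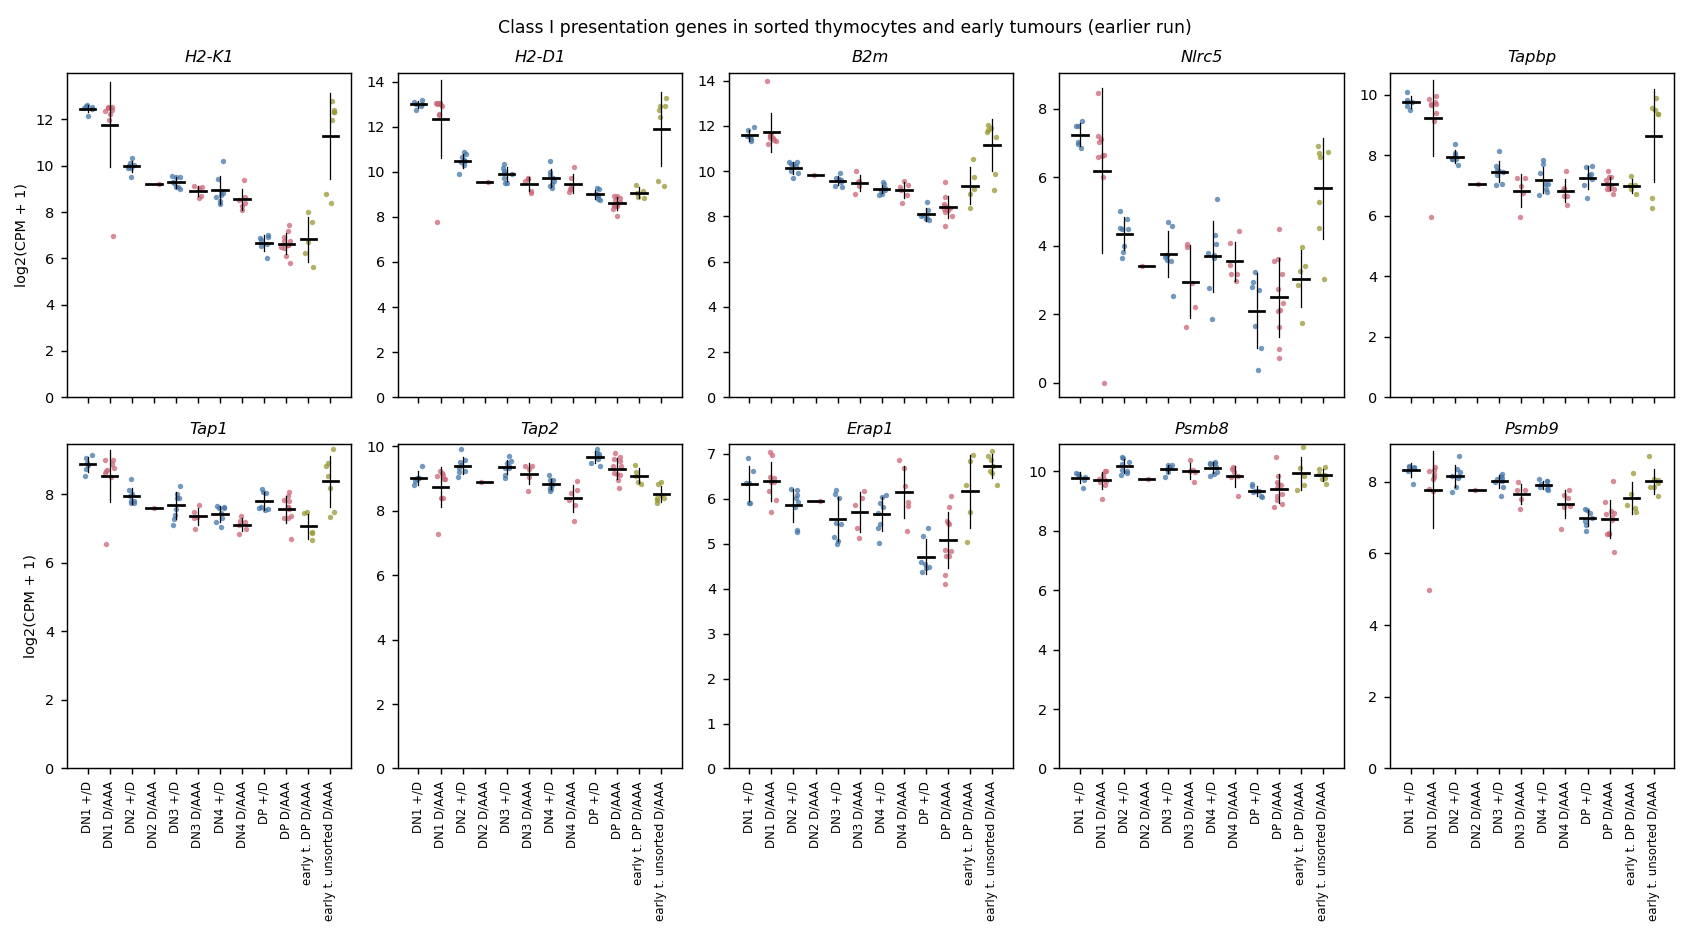
Level of each of the 10 genes in every sorted and early tumour library of the earlier run, as log2(CPM + 1) on the vertical axis, with 1 point per library, groups along the horizontal axis, and bars for the mean ± SD of the log2 values. H2-K1 falls from 4542 to 6291 CPM in DN1 +/D to 63.1 to 128 CPM in DP +/D, while Tap2 is higher at DP than at DN1.

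From DN1 to DN2 in +/D thymocytes, 2 of the 10 genes rose and 7 fell. Over all genes tested 49.8% changed, 24.1% higher and 25.7% lower, so calls were common at this step. The median log2 fold change of the 10 was -1.20, against -0.01 over all genes. H2-K1, a classical heavy chain, had a lowest, median and highest value of 4542, 5818 and 6291 CPM at DN1 and of 719.7, 1023 and 1283 CPM at DN2. All DN2 libraries lay below all DN1 libraries, a log2 fold change of -2.51 ± 0.12 (SE; edgeR adjusted p = 1.46e-11). H2-D1, the other classical heavy chain, went from 6763, 8186 and 9390.4 CPM to 956, 1427 and 1873 CPM, again without overlap (-2.50 ± 0.14, edgeR adjusted p = 8.05e-11). B2m ran from 2532 to 3899.8 CPM at DN1 and from 821 to 1358 CPM at DN2, a smaller step of -1.45 ± 0.14 (edgeR adjusted p = 7.46e-08). In these bulk libraries, fewer cells of a type and less RNA per cell cannot be told apart.

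Nlrc5, the transactivator, fell most of the 10 at this step. It had 114 to 199 CPM (median 154) at DN1 and 11.4 to 31.5 CPM (median 21.5) at DN2, with no overlap and a log2 fold change of -2.94 ± 0.22 (edgeR adjusted p = 3.41e-09). The loading factor Tapbp fell by 1.83 ± 0.13 on the log2 scale and Tap1 by 0.94 ± 0.13, both without overlap between the groups. Erap1 fell by 0.51 ± 0.20 with overlapping groups. Tap2 and Psmb8 went the other way. Tap2 rose by 0.38 ± 0.14 (edgeR adjusted p = 0.027), and 4 of 8 DN2 libraries lay above all DN1 libraries. Psmb8 rose by 0.39 ± 0.13 (edgeR adjusted p = 0.0151), with 7 of 8 DN2 libraries above all DN1 libraries. Psmb9 had a log2 fold change of -0.15 (edgeR adjusted p = 0.408). In 1 fit of all libraries of the run the calls of Tap2, Psmb8 and Erap1 ended, with edgeR adjusted p of 0.0605, 0.0597 and 0.126, and that of Erap1 also ended without the low-count filter (edgeR adjusted p = 0.0502).

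The marker sums of other cells moved with this step. All 7 class II genes and all 10 genes of NK, NKT and innate-like T cells fell from DN1 to DN2, and 5 of 6 B cell genes and 9 of 10 mature thymocyte genes fell. Over all genes 25.7% fell. B cell markers summed to 3618 to 5808 CPM at DN1 and 389.8 to 10041 CPM at DN2. The part of these markers in the class I result was not tested.

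Genes around the pathway moved with the same step, where 24.1% of all genes rose and 25.7% fell. Of 14 other class I heavy chain genes tested, 9 fell and 2 rose; among those that fell, H2-T23, a nonclassical heavy chain, changed by -2.31, and H2-Q7 by -3.79, a gene that shares sequence with H2-K1 and H2-D1. Of 20 regulators, 13 fell and 1 rose, with Irf1, an interferon regulatory factor, at -1.13. Of 20 interferon-induced genes, 12 fell and 1 rose. Of 8 other proteasome genes, 5 rose and 1 fell: the standard catalytic subunits Psmb5, Psmb6 and Psmb7 rose by 0.91, 0.81 and 1.11, and Psmb10, the remaining immunoproteasome catalytic subunit, fell by 0.49. Of 8 other loading genes, 2 rose and 3 fell, including Tapbpl, a tapasin-related loading factor, at -1.37.

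DN3 thymocytes, which rearrange the T cell receptor beta chain, had 0 members higher and 3 lower than DN2 cells, where 3.62% of all genes changed (1.11% higher, 2.52% lower). H2-K1 had a log2 fold change of -0.68 ± 0.11 (edgeR adjusted p = 0.000724), B2m of -0.58 ± 0.12 (edgeR adjusted p = 0.00359) and H2-D1 of -0.58 ± 0.14 (edgeR adjusted p = 0.0141). The groups overlapped in each of the 3 genes: H2-K1 ran from 719.7 to 1283 CPM at DN2 and from 505 to 745 CPM at DN3. In 1 fit of all libraries of the run, none of the 3 passed, with adjusted p of 0.453, 0.400 and 0.444. Tapbp passed under DESeq2 (-0.47, adjusted p = 0.0303) and limma voom (-0.50, adjusted p = 0.0191). The median log2 fold change of the 10 was -0.37, against 0.01 over all genes. Of 14 other heavy chain genes 1 rose and 1 fell, and no other proteasome gene passed. Class II genes fell in 3 of 6.

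From DN3 to DN4, 0 of the 10 rose and 2 fell, where 17.7% of all genes changed (7.85% higher, 9.9% lower). Tap2 had 518 to 826 CPM (median 657) at DN3 and 389.9 to 544 CPM (median 445) at DN4, and 7 of 8 DN4 libraries lay below all DN3 libraries (-0.61 ± 0.10, edgeR adjusted p = 0.000229). B2m fell by 0.43 ± 0.11 (edgeR adjusted p = 0.00611), with 6 of 8 DN4 libraries below all DN3 libraries, but did not pass in 1 fit of the run (-0.36, edgeR adjusted p = 0.538). H2-K1 at DN4 +/D ran from 323 to 1164 CPM with a median of 441, and the 2 highest values, 1164 and 677 CPM, were in libraries 1 and 7. Those libraries also held 5823 and 4197 CPM of class II genes, while the group median was 215 CPM. Without them, a choice made after seeing the data, 4 of the 10 and 19.2% of all genes passed: H2-K1 at -0.68 (edgeR adjusted p = 0.00048) and H2-D1 at -0.41 (edgeR adjusted p = 0.0373) joined Tap2 and B2m. With those libraries kept, H2-K1 passed under limma voom (-0.53, adjusted p = 0.0202).

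DP cells, the stage with both CD4 and CD8, had 2 of the 10 higher and 7 lower than DN4 cells. Over all genes 55% changed at this step, 28.7% higher and 26.3% lower, and the median log2 fold change of the 10 was -0.79 against 0.06. H2-K1 had 323, 441 and 1164 CPM (lowest, median, highest) at DN4 and 63.1, 111 and 128 CPM at DP. All 7 DP libraries lay below all 8 DN4 libraries, a change of -2.30 ± 0.25 (edgeR adjusted p = 1.94e-07), or -1.89 without DN4 libraries 1 and 7. H2-D1 had 623, 815 and 1418 CPM at DN4 and 433, 499.5 and 617 CPM at DP, also without overlap but with a smaller change of -0.69 ± 0.16 (edgeR adjusted p = 0.00107). B2m fell by 1.03 ± 0.13, from 494 to 729 CPM to 225 to 398 CPM.

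Tap2 and Tap1 rose at the same step. Tap2 had 389.9, 445 and 544 CPM at DN4 and 674, 826 and 968 CPM at DP, with no overlap (0.91 ± 0.10, edgeR adjusted p = 2.88e-07). Tap1 rose by 0.44 ± 0.13 (edgeR adjusted p = 0.00629), with 3 of 7 DP libraries above all DN4 libraries, and did not pass in 1 fit of the run (0.38, edgeR adjusted p = 0.134). Tapbp had a log2 fold change of 0.12 (edgeR adjusted p = 0.596). Both immunoproteasome genes fell without overlap: Psmb8 by 0.72 ± 0.11 and Psmb9 by 0.86 ± 0.11 on the log2 scale. Erap1 fell by 0.91 ± 0.21. Nlrc5 fell by 1.74 ± 0.58 (edgeR adjusted p = 0.016), to 0.286 to 8.44 CPM, which is 3 to 62 counts per library. Without DN4 libraries 1 and 7 its change was -1.23 and no longer passed (edgeR adjusted p = 0.0916).

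Around the pathway, all 8 other proteasome genes fell from DN4 to DP, with Psmb5 at -1.33 and Psmb10 at -1.02. Over all genes 28.7% rose and 26.3% fell. Of 14 other heavy chain genes 5 rose and 2 fell, and those that rose include Mr1 (2.83), which presents vitamin B metabolites, Cd1d1 (1.80), which presents lipids, and H2-T23 (1.28). Of 20 regulators 11 rose and 2 fell. Ifngr1, an interferon gamma receptor chain, rose by 1.45, and Irf1 fell by 0.84. Of 19 interferon-induced genes 5 rose and 8 fell. All 6 class II genes tested fell at this step, as did 6 of 7 genes of NK, NKT and innate-like T cells.

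Because the heavy chains, and the transporter subunits, did not move equally, their ratios within each library were compared. Over 6 comparisons, 4 ratios gave 24 tests, adjusted together; the ratios were chosen after the values had been seen. A ratio within a library shows unequal change and does not depend on the library factor. The median H2-K1 to H2-D1 ratio of raw counts was 0.698 at DN1, 0.701 at DN2, 0.682 at DN3, 0.564 at DN4 and 0.217 at DP in +/D libraries. From DN4 to DP it fell by 1.55 on the log2 scale without overlap (exact two-sided permutation p = 0.000155, adjusted p = 0.000746). In the steps from DN1 to DN2, DN2 to DN3 and DN3 to DN4, the exact permutation p was 0.977, 0.32 and 0.132.

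The Tap2 to Tap1 ratio moved mainly at the DN1 to DN2 step. Its median was 1.08 at DN1, 2.80 at DN2, 3.11 at DN3, 2.69 at DN4 and 3.59 at DP. DN2 exceeded DN1 by 1.31 on the log2 scale without overlap (exact permutation p = 0.000333, adjusted p = 0.00114), and DP exceeded DN4 by 0.47 (exact permutation p = 0.00109, adjusted p = 0.00262). The ratio of Psmb8 to Psmb5, an immunoproteasome subunit against the standard subunit it replaces, fell by 0.54 from DN1 to DN2 (adjusted exact permutation p = 0.00114). It rose by 0.60 from DN4 to DP (adjusted exact permutation p = 0.000746), where both subunits fell. Psmb8 to Psmb9 rose by 0.55 from DN1 to DN2 (adjusted exact permutation p = 0.002).

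**Figure D2:**
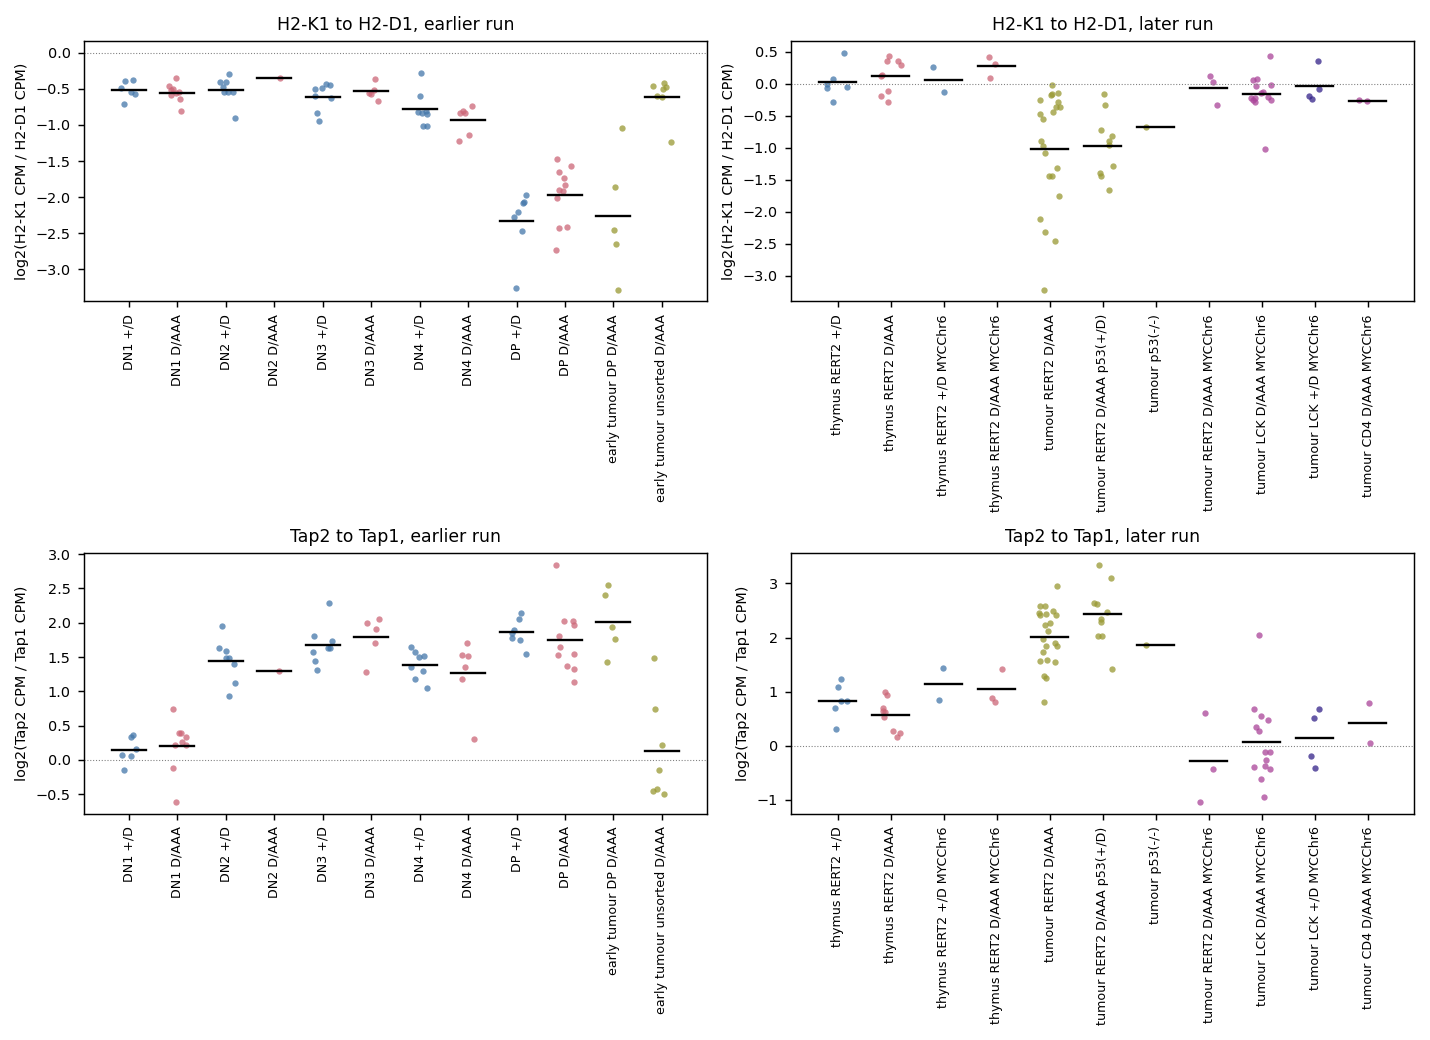
Log2 of the H2-K1 to H2-D1 ratio and of the Tap2 to Tap1 ratio (vertical axes) in every library, by group along the horizontal axis, for the earlier and the later run, with 1 point per library and a bar at the group mean. The H2-K1 to H2-D1 ratio is lowest in DP cells and in part of the RERT2 tumours, and the median Tap2 to Tap1 ratio is 4.14 in RERT2 D/AAA tumours and 0.920 in LCK D/AAA MYCChr6 tumours.

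The D/AAA genotype was compared with +/D at each sorted stage that had replicates. By edgeR, 0 of the 10 passed at DN1, DN3, DN4 and DP, where 0%, 0%, 0.0081% and 0.00803% of all genes passed. DESeq2 and limma voom also called 0 of the 10. Of all genes DESeq2 called 0.147%, 0.147%, 0.322% and 0.737% at these stages, and limma voom 0%, 0.0155%, 0.0405% and 0.0643%. At an unadjusted edgeR p under 0.05 the numbers of the 10 were 0 at DN1, 4 at DN3, 3 at DN4 and 1 at DP. Of all genes 2.75%, 4.25%, 6.46% and 10.6% were past it. A test of whether the genotype difference varied among the 4 stages called 0 of the 10 (0.134% of all genes passed; 0 at an unadjusted p under 0.05, against 8.35% of all genes).

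At DN3 the 4 genes past the unadjusted threshold were H2-K1, H2-D1, Psmb9 and Tapbp, each lower in D/AAA. H2-K1 had 394, 529.8 and 549.8 CPM (lowest, median, highest of 5) in D/AAA against 505, 621 and 745 CPM in +/D, a log2 difference of -0.35 ± 0.14 (edgeR adjusted p = 0.995). All 5 D/AAA libraries lay below the +/D median for these 4 genes, and the groups overlapped. At DN4, Psmb9 had 102 to 216 CPM in D/AAA and 219 to 271 CPM in +/D, without overlap (-0.45 ± 0.13, edgeR adjusted p = 0.635). At DP, H2-D1 had 260.2, 376 and 485 CPM in D/AAA and 433, 499.5 and 617 CPM in +/D, with all 11 D/AAA libraries below the +/D median (-0.36 ± 0.14, edgeR adjusted p = 0.364). H2-K1 at DP was 103 ± 33.6 CPM (SD, n = 11) in D/AAA and 104 ± 21.8 CPM (SD, n = 7) in +/D, within the spread of both groups. At DN1, library 8 of D/AAA had 123 CPM of H2-K1 and 16389.8 CPM of B2m from 21199 counts in all. Without it the D/AAA mean was 5369.9 ± 697 CPM for H2-K1 and 2779 ± 259 CPM for B2m (SD, n = 8).

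The sample titles of the earlier run fall into 2 ranges of numbers, whose meaning the labels do not give: 56 libraries with all +/D and 19 D/AAA, and 25 libraries that are all D/AAA. Within the first range 0 of the 10 passed between genotypes at DN1, DN3, DN4 and DP, where 0.00798%, 0%, 0.00767% and 0.0401% of all genes passed. H2-K1 differed there by -0.00, -0.42, -0.39 and -0.10 and H2-D1 by 0.03, -0.50, -0.21 and -0.37 on the log2 scale. The second range holds no +/D library, so it gives no genotype comparison.

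Early tumours sorted as DP cells were compared with DP D/AAA cells to ask how tumour DP cells differ from their non-tumoral counterparts. By edgeR 0 of the 10 passed (0% of all genes), and 4 had an unadjusted p under 0.05, as did 22.2% of all genes. DESeq2 called 3 of the 10 and 6.05% of all genes, and limma voom 4 and 17.4%. B2m had 326, 498, 581, 841 and 1496 CPM in the 5 early tumours, against 189, 332 and 723 CPM (lowest, median, highest) in DP D/AAA. Libraries 3 and 4 exceeded all DP D/AAA libraries and 4 of 5 exceeded their median, a log2 difference of 1.04 ± 0.30 (edgeR adjusted p = 0.0894). Erap1 had 31.8, 50.8, 77.5, 114 and 125 CPM against 16.2, 28.2 and 65.4 CPM, with 5 of 5 above the DP D/AAA median (1.14 ± 0.33, edgeR adjusted p = 0.0933). H2-K1 had 47.6, 74.8, 103, 190.4 and 257 CPM against 55.0, 93.9 and 173 CPM (0.37 ± 0.31, edgeR adjusted p = 0.49).

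The calls differed between settings. By edgeR, none of the genes described here passed under relative log expression factors or without the low-count filter. Nor did any pass with these genes left out of the library factors. Of all genes 0%, 0.0586% and 0% passed in those settings. Leaving out early tumour library 2, 3, 4 or 5 also gave 0 calls among the genes described here, and 0% of all genes. B2m and Erap1 passed under DESeq2, under limma voom and in 1 fit of the run. H2-D1 also passed under DESeq2 (0.49, adjusted p = 0.0431) and limma voom (0.47, adjusted p = 0.042). Tap1 was lower in the tumours under limma voom (-0.61, adjusted p = 0.0336), and Psmb8 was higher in 1 fit of the run (0.53, edgeR adjusted p = 0.0424). Within the second range of titles, B2m differed by 1.22 (edgeR adjusted p = 0.039). Without early tumour library 1, B2m differed by 1.25 (edgeR adjusted p = 0.0161) and Erap1 by 1.35 (edgeR adjusted p = 0.0178). Without DP D/AAA libraries 1 and 5, both also passed, at 1.29 and 1.21. In 1 fit of the run 6.97% of all genes passed, and 6.45% within the second range of titles. The shares were 12.3% without early tumour library 1 and 14.4% without those DP D/AAA libraries. Class II genes summed to 65.1 to 125 CPM in these tumours and 24.2 to 202 CPM in DP D/AAA. Genes of NK, NKT and innate-like T cells summed to 63.1 to 2062 CPM against 31.4 to 775 CPM, and the part of those cells was not tested.

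Unsorted early tumours had far more class I transcript than DP cells: 8 of the 10 were higher and 1 lower than in DP D/AAA, where 29.1% of all genes changed (15.9% higher, 13.2% lower). The median log2 difference of the 10 was 1.82, against -0.01 over all genes. H2-K1 had 5092, 433, 330.4, 5086, 3995, 5363 and 7103 CPM in unsorted early tumours 1 to 7, against 55.0 to 173 CPM in DP D/AAA. All 7 lay above all DP libraries, and libraries 2 and 3 lay far below the other 5 (5.27 ± 0.47, edgeR adjusted p = 3.2e-07; 5.61 without libraries 2 and 3). H2-D1 (3.85 ± 0.40), B2m (2.97 ± 0.33) and Nlrc5 (3.44 ± 0.61) were also higher. Tapbp passed as higher (2.06 ± 0.35), but its libraries split: 5 of 7 lay above all DP D/AAA libraries, while libraries 2 and 3, with 75.1 and 94.0 CPM, lay below all of them. Tap2 had the opposite direction, 299.6 to 475 CPM against 413 to 892 CPM (-0.80 ± 0.18, edgeR adjusted p = 0.00205). Psmb8 did not pass (0.40, edgeR adjusted p = 0.154), though all 7 lay above the DP D/AAA median. It passed under limma voom (0.52, adjusted p = 0.00719), and by edgeR in 1 fit of the run (adjusted p = 0.0474), within the second range of titles (adjusted p = 0.0292) and without DP D/AAA libraries 1 and 5 (adjusted p = 0.029). Within that second range Tap1 did not pass (0.82, edgeR adjusted p = 0.0544).

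Set against DN1 D/AAA cells, the unsorted early tumours differed in 0 of the 10 by edgeR, where 0.00862% of all genes passed; 0 had an unadjusted p under 0.05, against 14.4% of all genes, and DESeq2 and limma voom called 0, against 3.41% and 0.198%. The largest log2 difference was that of Nlrc5, at -0.92 ± 0.51. The DN1 D/AAA group includes library 8, with 21199 counts in all. Without it, 0 of the 10 and 0.233% of all genes passed by edgeR. The other DN1 D/AAA libraries had 3991 to 6002 CPM of H2-K1, above unsorted early tumours 2 and 3 (433 and 330 CPM). The H2-K1 to H2-D1 ratio had a median of 0.703 and the Tap2 to Tap1 ratio of 0.906 in the unsorted early tumours, against 0.686 and 1.20 in DN1 D/AAA. In the comparison with DP cells, 7 of 7 class II genes, 6 of 7 genes of NK, NKT and innate-like T cells, 4 of 5 B cell genes and 11 of 17 interferon-induced genes were higher. Double positive markers were lower in 7 of 8. Over all genes 15.9% were higher and 13.2% lower in that comparison. Libraries 2 and 3, low in class II genes and in genes of NK, NKT and innate-like T cells (397 and 529.7 CPM), were also the lowest in H2-K1. The part of those cells in the difference was not tested.

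Whole thymus of D/AAA mice was compared with that of +/D mice in the later run. By edgeR 0 of the 10 passed (0% of all genes), and 2 had an unadjusted p under 0.05, as did 8.21% of all genes. DESeq2 and limma voom called 0 of the 10, against 0.342% and 0.00905% of all genes. B2m had 157, 176 and 219 CPM (lowest, median, highest of 6) in +/D and 173, 258 and 348 CPM (of 9) in D/AAA. 8 of 9 D/AAA libraries lay above all +/D libraries, a log2 difference of 0.52 ± 0.16 (edgeR adjusted p = 0.428). Erap1, the other gene past the unadjusted threshold, differed by 0.51 ± 0.19 (edgeR adjusted p = 0.486). H2-K1 had 174 to 229.8 CPM in +/D and 95.7 to 397 CPM in D/AAA: 7 of 9 D/AAA libraries lay above all +/D libraries and library 7 lay below them.

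**Figure D3:**
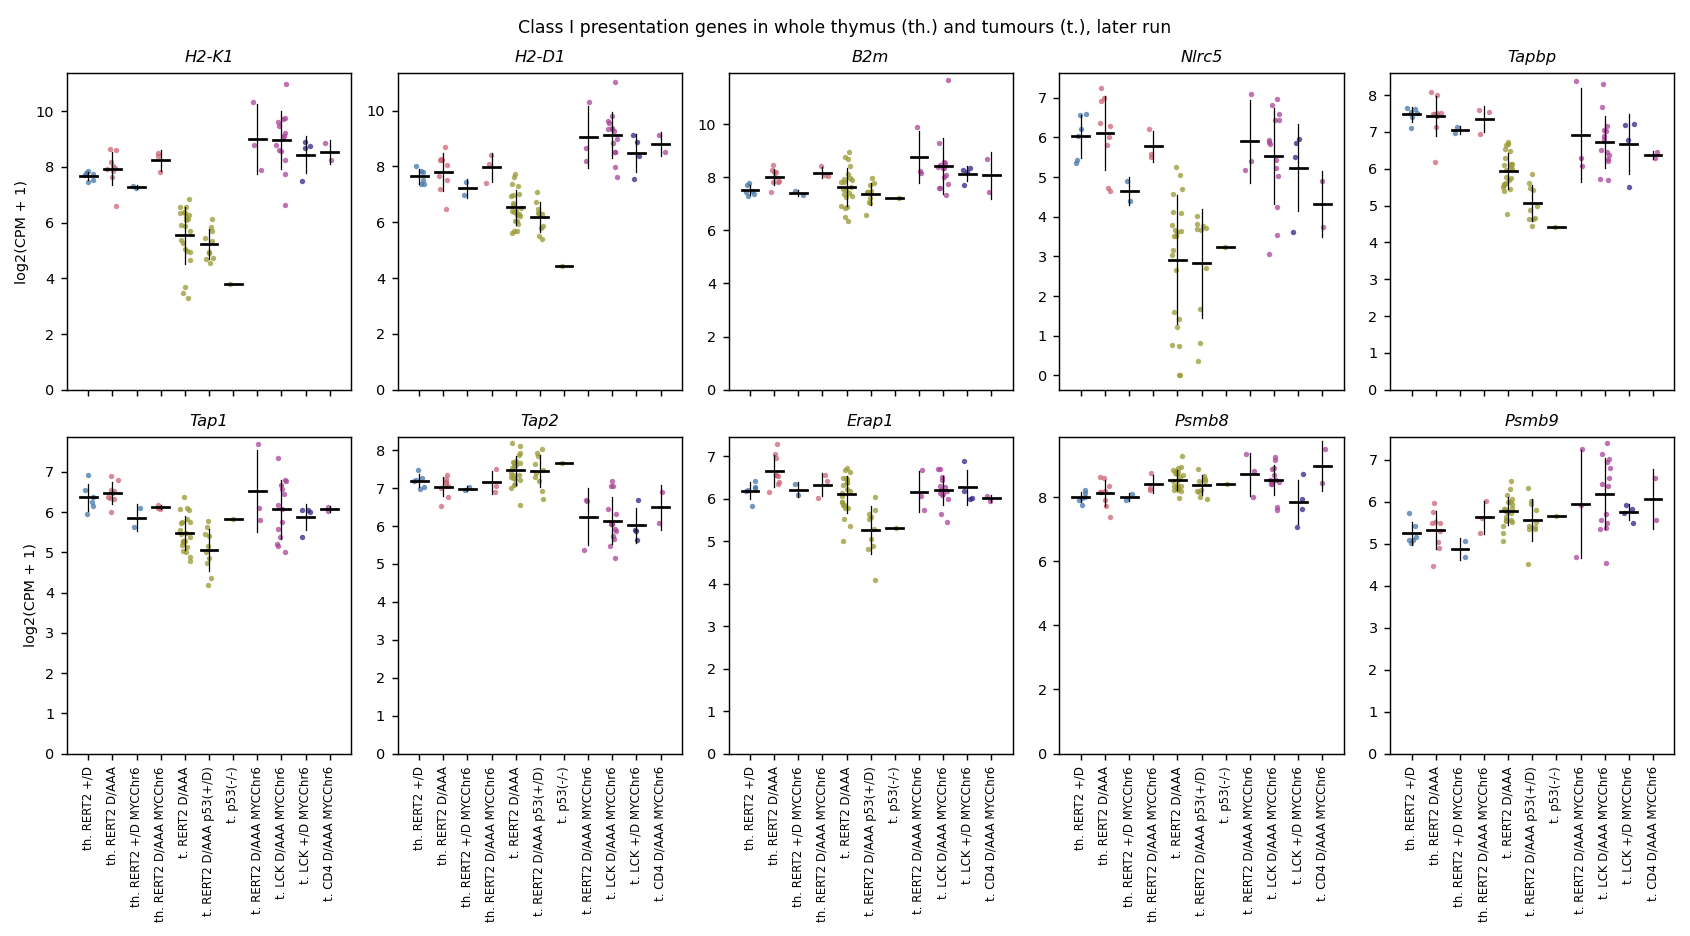
Level of each of the 10 genes in every whole thymus and tumour library of the later run, as log2(CPM + 1) on the vertical axis, with 1 point per library, groups along the horizontal axis, and bars for the mean ± SD of the log2 values. RERT2 D/AAA tumours lie at 8.83 to 113 CPM of H2-K1, RERT2 D/AAA thymus at 95.7 to 397 CPM and LCK D/AAA MYCChr6 tumours at 97.6 to 2016 CPM.

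RERT2 D/AAA tumours were compared with D/AAA thymus: 3 of the 10 were higher and 6 lower, where 34.9% of all genes changed (18.1% higher, 16.8% lower). The median log2 fold change of the 10 was -0.78, against 0.04 over all genes. H2-K1 had 95.7, 249 and 397 CPM in thymus and 8.83, 59.0 and 113 CPM in the 22 tumours. The groups overlapped in 1 tumour, and the other 21 lay below all thymus libraries (-2.26 ± 0.30, edgeR adjusted p = 1.57e-06). H2-D1 had 87.7, 264 and 419 CPM in thymus and 47.8, 83.4 and 211 CPM in tumours, with 12 of 22 below all thymus libraries (-1.32 ± 0.23, edgeR adjusted p = 4.37e-05). B2m did not follow the heavy chains: 173, 258 and 348 CPM in thymus and 79.8, 192 and 496 CPM in tumours (-0.27 ± 0.23, edgeR adjusted p = 0.386).

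Nlrc5 was lower in these tumours by 2.88 ± 0.54 on the log2 scale (edgeR adjusted p = 0.000154), the largest change of the 10. It had 24, 77.4 and 152 CPM in thymus and 0, 10.4 and 37.3 CPM in tumours, and tumours 15 and 20 had 0 counts. Tapbp fell by 1.53 ± 0.18 (edgeR adjusted p = 1.65e-07), from a median of 180.0 to 62.2 CPM, with 16 of 22 tumours below all thymus libraries. Tap1 fell by 0.99 ± 0.15, with 18 of 22 below all thymus libraries, and Erap1 fell by 0.56 ± 0.16, with 11 of 22.

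Tap2, Psmb8 and Psmb9 rose in the same tumours. Tap2 had 91.2, 133 and 161 CPM in thymus and 92.4, 177 and 293 CPM in tumours, 13 of which lay above all thymus libraries (0.44 ± 0.14, edgeR adjusted p = 0.0147). Psmb8 rose by 0.38 ± 0.14 (edgeR adjusted p = 0.0282) and Psmb9 by 0.41 ± 0.15 (edgeR adjusted p = 0.0352). The call of Psmb9 ended under DESeq2 (adjusted p = 0.0593), under relative log expression factors (edgeR adjusted p = 0.0533), without the low-count filter (edgeR adjusted p = 0.0661) and in 1 fit of the run (edgeR adjusted p = 0.144). The last also ended that of Psmb8 (edgeR adjusted p = 0.0536). With +/D thymus as the reference, a choice made after seeing the data, 7 of the 10 and 41.5% of all genes passed: H2-K1 changed by -1.89, while Erap1 (-0.05, edgeR adjusted p = 0.841) and Tap2 (0.31, edgeR adjusted p = 0.131) no longer passed.

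The 22 tumours differed widely among themselves. Tumours 21, 3 and 6 had the least H2-K1, with 8.83, 10.1 and 11.8 CPM from 64, 48 and 56 counts. Tumour 21 also had the most B2m of the group, 496 CPM, and 82.0 CPM of H2-D1, close to the group median of 83.4 CPM. Tumours 18 and 8 had the most H2-K1, 94.2 and 113 CPM. The H2-K1 to H2-D1 count ratio ran from 0.108 to 0.981 and was above 1 in 0 of 22 tumours, but in 6 of 9 D/AAA thymus libraries. Its median was 1.10 in thymus and 0.608 in tumours, a log2 difference of -1.13 (exact permutation p = 0.00109, adjusted p = 0.00262). The Tap2 to Tap1 ratio was above 1 in 22 of 22 tumours, with a median of 4.14 against 1.54 in thymus, a log2 difference of 1.45 (exact permutation p = 1.49e-07, adjusted p = 3.57e-06). Psmb8 to Psmb5 fell by 0.68 (adjusted exact permutation p = 0.000574), as Psmb5 rose more than Psmb8.

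The rest of the pathway moved in both directions in these tumours, where 18.1% of all genes rose and 16.8% fell. Of 15 other heavy chain genes 9 fell and 0 rose, with H2-T23 at -1.52 and H2-Q4 at -1.76. Of 20 regulators 10 fell and 1 rose: Irf9, an interferon regulatory factor, fell by 1.88, and Irf1 had a log2 fold change of -0.38 (edgeR adjusted p = 0.053). Of 18 interferon-induced genes 14 fell and 1 rose; Irgm2, an interferon-inducible GTPase, changed by -3.40 and Gbp4, a guanylate-binding protein, by -2.01. Of 8 other proteasome genes 6 rose and 0 fell, among them Psmb5 (1.01) and the activator subunit Psme2 (0.67), and Psmb10 had a log2 fold change of 0.18 (edgeR adjusted p = 0.41). Of 8 other loading genes 4 rose and 1 fell.

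Marker genes of other cells also moved between thymus and tumour, where 18.1% of all genes rose and 16.8% fell. Class II genes fell in 4 of 7, B cell genes in 4 of 5, mature thymocyte genes in 8 of 10, genes of NK, NKT and innate-like T cells in 3 of 6, and double positive markers in 6 of 8. Class II genes summed to 57.5 to 812 CPM in D/AAA thymus and 65.8 to 534 CPM in the tumours, and mature thymocyte genes to 375 to 1363 CPM and 73.4 to 929 CPM. Genes of macrophages and granulocytes rose in 2 of 5. The part of these cells in the class I result was not tested.

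Tumours that also carried p53(+/D) were compared with the other RERT2 D/AAA tumours. Tapbp and Erap1 were lower and 0 of the 10 higher, where 1.29% of all genes changed. Tapbp had 26.5, 62.2 and 106 CPM in the 22 tumours and 20.7, 29.8 and 56.7 CPM in the 10 with p53(+/D). All 10 lay below the median of the 22, and 4 below all of them (-0.91 ± 0.19, edgeR adjusted p = 0.00958). Erap1 had 31.2, 70.6 and 105 CPM against 15.9, 41.7 and 64.9 CPM, with 10 of 10 below the median of the 22 (-0.83 ± 0.18, edgeR adjusted p = 0.0137). H2-K1 had 22.2, 35 and 69.2 CPM with p53(+/D), within the range of the 22 (-0.52 ± 0.32, edgeR adjusted p = 0.48), and Tap2 differed by -0.03 (edgeR adjusted p = 0.954). Of the other lists, 1 of 8 other proteasome genes rose (Psmb6, 0.64) and no other heavy chain, loading, regulator, interferon-induced or class II gene passed. The p53(-/-) tumour, 1 library, had 13 CPM of H2-K1, 20.8 of H2-D1, 148 of B2m and 202 of Tap2.

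LCK D/AAA MYCChr6 tumours had more class I transcript than RERT2 D/AAA tumours: 7 of the 10 were higher and 1 lower, where 35.3% of all genes changed (18.6% higher, 16.7% lower). The 2 groups differ in the driver and in MYCChr6 at once, whose parts cannot be told apart. H2-K1 had 97.6, 547 and 2016 CPM in the 14 LCK tumours and 8.83, 59.0 and 113 CPM in the 22 RERT2 tumours. Of the LCK tumours 13 lay above all RERT2 tumours, and tumour 7 was within their range (3.51 ± 0.33, edgeR adjusted p = 3.93e-10). H2-D1 had 197, 632 and 2062 CPM against 47.8, 83.4 and 211 CPM, again with 13 of 14 above all RERT2 tumours (2.74 ± 0.24, edgeR adjusted p = 1.19e-10). Nlrc5 was higher by 2.41 ± 0.50 (edgeR adjusted p = 0.000232), Tapbp by 0.91 ± 0.20, Tap1 by 0.72 ± 0.19 and Psmb9 by 0.62 ± 0.19. Of the 14 LCK tumours 13, 12, 10 and 8 lay above the RERT2 median of these genes in turn. In Psmb9 6 lay below it, 1 of them below all RERT2 tumours.

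The edgeR call of B2m in this comparison depended on 1 library. B2m had 158, 324 and 3205 CPM in the LCK tumours, the highest in tumour 9, against 79.8 to 496 CPM in RERT2 tumours (1.26 ± 0.33, edgeR adjusted p = 0.00316). Of the 14 LCK tumours 12 lay above the RERT2 median. Without tumour 9 the difference was 0.50 and did not pass (edgeR adjusted p = 0.0678), nor did it under DESeq2 (0.48, adjusted p = 0.0831). Psmb9 did not pass under limma voom (0.34, adjusted p = 0.156). Tap2 was lower: 34.7, 65.0 and 145 CPM against 92.4, 177 and 293 CPM, with 11 of 14 below all RERT2 tumours (-1.25 ± 0.17, edgeR adjusted p = 5.49e-07). Erap1 (0.09) and Psmb8 (0.04) did not pass.

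Between these 2 groups Tap2 was thus lower where the heavy chains were higher, with a lower Tap2 to Tap1 and a higher H2-K1 to H2-D1 ratio. Within the LCK group, tumour 9 had the most H2-K1 (2016 CPM) but not low Tap2. Its Tap2 was 133 CPM, against a mean of 71.9 CPM in the other 13. Between LCK D/AAA MYCChr6 and RERT2 tumours the Tap2 to Tap1 ratio differed by -1.93 on the log2 scale (permutation p = 1e-05, the smallest that 100000 resamples can give; adjusted p = 0.00012). Its medians were 0.920 and 4.14. The H2-K1 to H2-D1 ratio differed by 0.85 (permutation p = 0.00128, adjusted p = 0.00279), with medians of 0.887 and 0.608.

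Markers of other cells moved with the LCK comparison as well. All 7 class II genes, 5 of 5 B cell genes, 4 of 7 macrophage and granulocyte genes and 8 of 10 mature thymocyte genes were higher in the LCK tumours. Class II genes summed to 73.8 to 6555 CPM in them and 65.8 to 534 CPM in RERT2 tumours. LCK tumour 9, the highest in H2-K1, also had the most class II transcript, 6555 CPM. LCK tumours 2, 3, 4, 5, 7, 8, 13 and 14 had class II sums within the range of the RERT2 tumours. Their H2-K1 ran from 97.6 CPM in tumour 7, within the RERT2 range, to 870 CPM in tumour 14. The part of these cells in the class I result was not tested. Of 15 other heavy chain genes 8 were higher and 5 lower, with H2-Q7 at 4.44 and Mr1 at -2.36. Of 20 regulators 4 were higher and 2 lower, of 15 interferon-induced genes 3 and 1, of 8 other proteasome genes 2 and 0, and of 8 other loading genes 4 and 0. Over all genes 35.3% changed (18.6% higher, 16.7% lower), so calls were common in this comparison.

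RERT2 D/AAA MYCChr6 tumours differ from the 22 RERT2 D/AAA tumours in MYCChr6 alone, as the labels give it. Of the 10 genes 6 were higher and 1 lower, where 9.23% of all genes changed (5.65% higher, 3.57% lower). This comparison and that of the LCK tumours share the 22 RERT2 tumours. H2-K1 had 234, 439.8 and 1294 CPM in the 3 tumours, all above the 113 CPM that is the highest of the 22 (3.59 ± 0.44, edgeR adjusted p = 5.97e-06). H2-D1 had 294, 406 and 1266 CPM, also without overlap (2.74 ± 0.32, edgeR adjusted p = 2.16e-06). Tap2 had 103, 40.7 and 100.4 CPM, all below the RERT2 median of 177 CPM (-1.15 ± 0.28, edgeR adjusted p = 0.00786). The median Tap2 to Tap1 ratio was 0.746.

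The other calls of this small group did not hold under every setting. With all 3 tumours, B2m (1.23, edgeR adjusted p = 0.0445), Tap1 (1.28, edgeR adjusted p = 0.00297), Tapbp (1.35, edgeR adjusted p = 0.00624) and Nlrc5 (2.69, edgeR adjusted p = 0.0356) passed. Without tumour 3 they did not, at 0.42, 0.43, 0.18 and 1.80 on the log2 scale, and 3 of the 10 passed, where 4.58% of all genes did. H2-K1 (2.62, edgeR adjusted p = 0.00266), H2-D1 (1.83, edgeR adjusted p = 0.0023) and Tap2 (-1.33) passed without it. Tumour 3 stood above the other tumours of its group: its B2m was 944 CPM against 299 and 283 CPM, and its Tapbp 336 CPM against 77.5 and 66.0 CPM. Nlrc5 also did not pass without tumour 1 (2.95, edgeR adjusted p = 0.0596), under DESeq2 (adjusted p = 0.0674) or without the low-count filter (edgeR adjusted p = 0.0649). B2m did not pass under limma voom (adjusted p = 0.12), without the filter (edgeR adjusted p = 0.102) or in 1 fit of the run (edgeR adjusted p = 0.0626), nor Tapbp under limma voom (adjusted p = 0.098). Without tumour 2, Tap2 did not pass (-0.82, edgeR adjusted p = 0.092) and Psmb9 did (0.96, edgeR adjusted p = 0.0211). Class II genes were higher in 6 of 7 and B cell genes in 5 of 6, and class II genes summed to 453 to 2194 CPM in the 3 tumours.

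Against D/AAA MYCChr6 thymus, the 3 RERT2 D/AAA MYCChr6 tumours differed in 0 of the 10 by edgeR, where 2.17% of all genes changed; 1 had an unadjusted p under 0.05, as did 19.5% of all genes, and DESeq2 and limma voom called 0, against 5.26% and 2.39% of all genes. H2-K1 had 225, 360.4 and 334 CPM in thymus, against 234, 439.8 and 1294 CPM in tumours (1.08 ± 0.59, edgeR adjusted p = 0.366). H2-D1 had 169, 338 and 269 CPM in thymus (1.32 ± 0.56, edgeR adjusted p = 0.255), and passed without the low-count filter (1.31, edgeR adjusted p = 0.00156). Tap2 had 119, 132 and 179 CPM in thymus and 40.7, 100.4 and 103 CPM in tumours, without overlap. It did not pass (-0.83 ± 0.39, edgeR adjusted p = 0.284).

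Among LCK MYCChr6 tumours, D/AAA and +/D differed in 0 of the 10 by edgeR (0% of all genes). At an unadjusted p under 0.05 there was 1 of the 10, against 5.11% of all genes. DESeq2 and limma voom called 0 of the 10, against 0.153% and 0% of all genes. H2-K1 had 410, 425, 470.0 and 177 CPM in the 4 +/D tumours and 97.6 to 2016 CPM in D/AAA, which spans them (0.74 ± 0.53, edgeR adjusted p = 0.973). The gene past the unadjusted threshold was Psmb8 (0.63 ± 0.28, edgeR adjusted p = 0.966). The 2 CD4 D/AAA MYCChr6 tumours, which entered no test, had 302 and 459 CPM of H2-K1 and 119 and 66.6 CPM of Tap2. The 2 RERT2 +/D MYCChr6 thymus libraries had 149.5 and 158 CPM of H2-K1.

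**Figure D4:**
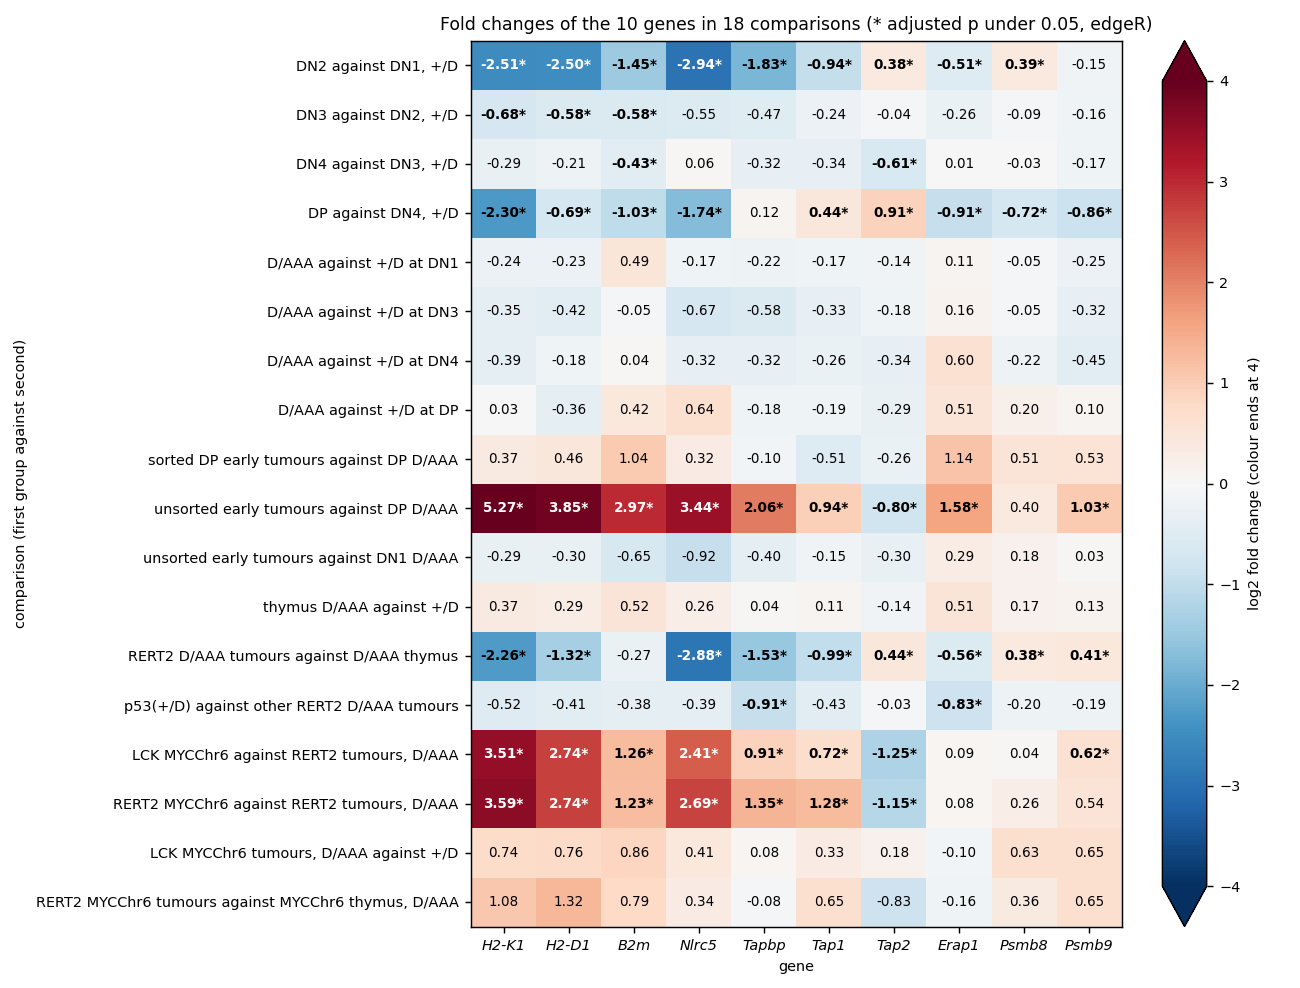
Log2 fold change of each of the 10 genes (columns) in each of the 18 comparisons between 2 groups (rows), as colour whose scale ends at 4, with a star where the edgeR adjusted p is under 0.05. Tap2 carries the opposite sign to H2-K1 in all 6 comparisons where both have a star.

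Over all groups with replicates, the genes differed in how far their means spread. In the earlier run the highest group mean was 55.4 times the lowest for H2-K1, 36.0 times for Nlrc5 and 20.8 times for H2-D1, but 2.36 times for Tap2 and 1.80 times for Psmb8. In the later run the same figure was 16.7 for H2-K1, 9.42 for Nlrc5, 8.65 for H2-D1, 2.74 for Tap2 and 2.16 for Psmb8. Across libraries H2-K1 and H2-D1 followed each other (Spearman rho = 0.96 over 81 libraries and 0.95 over 76), and Psmb8 followed Psmb9 less closely (0.65 and 0.70). Tap2 had a rho of -0.10 and -0.30 with the mean standardized level of all 10 genes, itself included, and of -0.67 with H2-K1 in the later run. These are descriptions: libraries of a group share their condition, and the genes of a library share its depth and library factor.

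Outside the 10, the genes whose levels followed the mean standardized log2 level of the 10 most closely by Spearman rho in the earlier run (81 libraries; 9612 genes averaging 10 CPM or more) were Lgals3bp (0.94), Gm2a (0.94), Orai3 (0.92), Sema4a (0.92), Coro2a (0.92), Unc93b1 (0.91), Lfng (0.91) and Ccnd2 (0.90). In the later run (76 libraries, 7475 genes) they were Ahnak (0.81), H2-Q7 (0.80), Fxyd5 (0.78), B4galnt1 (0.77), AW112010 (0.76), S100a10 (0.74), Gm8995 (0.74) and Shisa5 (0.74). By Pearson's r, 3 of the 8 genes in the earlier run and 4 of 8 in the later run remained. Over non-tumoral libraries alone, 8 of 8 and 0 of 8 remained.

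H2-K1 was also set against the summed class II genes, which mark antigen-presenting cells. Spearman's rho was 0.85 over the 81 libraries of the earlier run and 0.73 over the 76 of the later run. Within groups of at least 6 libraries it ran from -0.71 in +/D thymus (6 libraries) to 0.88 in D/AAA thymus (9 libraries), with 0.69 in the 22 RERT2 tumours and 0.47 in the 14 LCK D/AAA MYCChr6 tumours.

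**Figure D5:**
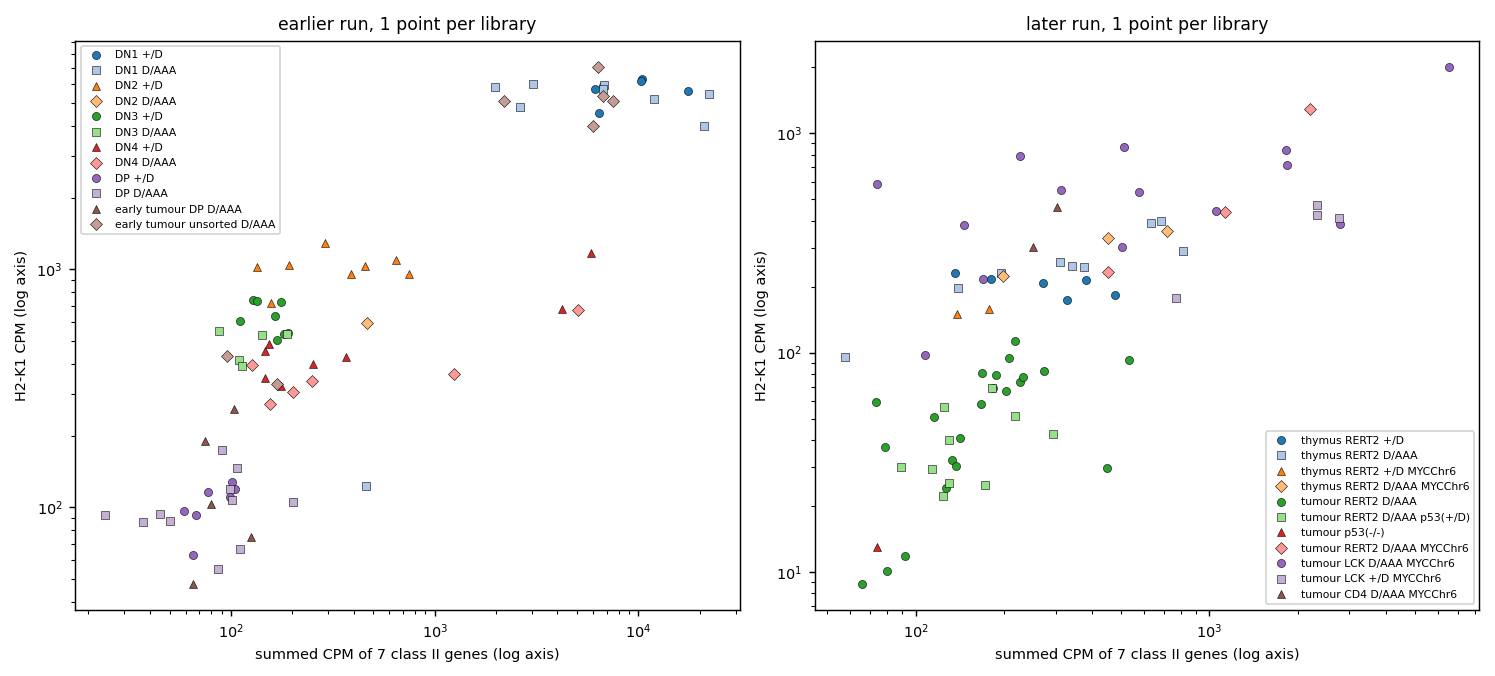
H2-K1 level (vertical axis, CPM) against the summed level of 7 MHC class II genes (horizontal axis, CPM), both on log axes, with 1 point per library coloured by group, for the earlier and the later run. Except DN1 D/AAA library 8, at 123 CPM of H2-K1, the DN1 libraries lie at the upper right with 5 of 7 unsorted early tumours, and RERT2 tumours reach at most 113 CPM of H2-K1.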

How the data were processed

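RNA from sorted cells or unsorted tumour cells was prepared with the RNeasy Plus Mini Kit and sequenced on a HiSeq2000, per the labels' protocols. FastQC, STAR 2.5.3a and RSEM 1.3.0 with GRCm38 (mm10) are named in the submitters' processing notes. The deposited values are expected counts per Ensembl gene; all were whole numbers, so none was rounded. Gene symbols and positions came from GENCODE M21, which named 50376 of 50686 genes.

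Each comparison used the libraries of its groups: edgeR 4.0.16 (R 4.3.3) filterByExpr, TMM factors, a robust quasi-likelihood fit and Benjamini-Hochberg adjustment over all genes tested, with calls at adjusted p under 0.05. The standard error is the log2 fold change over the square root of F. Means and figures use TMM-scaled CPM of the whole run. Alternatives were DESeq2 1.42.0, limma 3.58.1 voom with quality weights, no low-count filter, 1 fit per run, relative log expression factors, factors without the 10 genes, and libraries left out. The fits were tested on simulated data. Ratios used exact permutation tests, or 100000 resamples, in Python 3.11.15 with scipy 1.17.1 and numpy 2.4.6; figures used matplotlib 3.10.9.

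The 10 genes and the lists (other class I heavy chains, other peptide loading, proteasome, regulators, interferon-induced genes, and markers of class II presenting cells, B cells, macrophages and granulocytes, NK, NKT and innate-like T cells, mature thymocytes and double positive thymocytes) were chosen with earlier results of these data known. Genes beyond the 10 were named as the standard and immunoproteasome subunits, the list genes with the lowest adjusted p among those called, and the 8 most like the mean of the 10 in each run. The DN2 D/AAA, CD4, p53(-/-) and +/D MYCChr6 thymus groups entered no test. 1 gene of the regulator list is not reported by name here.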

Additional observations from a re-analysis of the deposited data

Results flagged for a closer look

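In 140 sets of 4 to 10 libraries (1 gene in 1 group), 16 values stood apart from the rest of their group by Dixon's criterion, which chance alone meets in about 1 set in 20. The DN1 D/AAA library 8, with 21199 counts in all, gave 6 of them: it was lowest in H2-K1 (123 CPM), H2-D1 (215 CPM), Tap1 (92.3 CPM), Tapbp (61.5 CPM) and Psmb9 (30.8 CPM), and highest in B2m (16389.8 CPM). In DN1 D/AAA library 9, Nlrc5 was highest at 354 CPM.

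At DN4, H2-K1 (1164 CPM) and Nlrc5 (40.0 CPM) were highest in +/D library 1, and H2-K1 was highest in D/AAA library 3 (672 CPM). These libraries held 5823 and 5046 CPM of class II genes, and the part of those cells was not tested. In DN1 +/D library 1, Psmb9 was lowest (244 CPM) and Tap2 highest (674 CPM). Tapbp was highest in DN3 +/D library 2 (279 CPM) and Psmb9 in unsorted early tumour 7 (419 CPM). Of the 4 LCK +/D MYCChr6 tumours, Erap1 was highest in tumour 2 (117 CPM) and Tap1 lowest in tumour 3 (40.9 CPM).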

How the results depend on the processing

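Across the alternatives no direction of a called gene reversed. Of 175 recomputed counts of genes called, 164 stayed within 1.5 times the first value and 11 did not. From DN2 to DN3 the count went from 3 to 0 in 1 fit of the run, and from DN3 to DN4 from 2 to 1 in that fit and to 4 without the DN4 libraries high in class II genes. Of all genes 1.87%, 6.35% and 19.2% passed there. For the sorted DP early tumours it went from 0 to 3 under DESeq2, 4 under limma voom, 3 in 1 fit of the run, 1 within the second range of titles and 2 without DP D/AAA libraries 1 and 5, and leaving out each tumour gave 0 to 2. Of all genes 6.05%, 17.4%, 6.97%, 6.45% and 14.4% passed in those settings, and 0% to 12.3% with each tumour left out. For the RERT2 D/AAA MYCChr6 tumours, leaving out each in turn gave 3 to 7 of the 10 called against RERT2 tumours. There 4.58% to 7.15% of all genes passed. Against MYCChr6 thymus the count went from 0 to 1 without the low-count filter, where 4.19% of all genes passed. The causes were not tested. Among single genes 26 values crossed into a call and 33 out of one. No paired analysis was possible because the labels give no replicate numbers. Low counts limit Nlrc5 most: 3 to 62 counts per DP +/D library. Groups of 2 or 3 libraries limit the MYCChr6 comparisons. The unstated strand of the counting limits the genes with overlapping neighbours.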
